A study of Rattus norvegicus with 12 samples.

Results

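The enzymes of glycolysis, gluconeogenesis and the pentose phosphate pathway, with some enzymes that feed or drain them, were examined in rat renal cortex as a group of 32 genes. A gene's probe sets were those whose array annotation named that gene alone, older aliases included. On this rule 30 of the 32 genes had a probe set of their own, giving 50 of the 31099 probe sets on the array. Pkm and G6pc1 were present on probe sets that name several genes, and their values are given apart. Of the 30 genes, 28 had at least 1 probe set bright enough to be tested (37 probe sets), so counts below are of these 28 and not of the whole list.

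The study asked how diabetes begun before or after puberty changes the transcriptome of the kidney cortex in male littermate rats. It comprised 4 groups of 3 arrays, each array hybridised with biotin-labelled RNA of 1 cortex sample. In the 20-week diabetic group the rats received 65 mg/kg of streptozocin by vein at 14 weeks of age, which destroys the beta cells of the pancreas, and in the 20-week nondiabetic group they received vehicle. The 10-week diabetic and nondiabetic groups had the same injections at 4 weeks of age. Pellets were placed 3 days after injection, with insulin palmitate in diabetic rats and palmitate vehicle in nondiabetic rats, and the protocol lasted 6 weeks. Blood glucose of diabetic rats was 350 to 450 mg/dl by the sample labels, and the series description gives 350 at both ends. Streptozocin and insulin pellets both went with diabetes, so their effects and those of hyperglycaemia cannot be told apart. The label of 10-week diabetic replicate 1 names an insulin palmitate vehicle pellet, and 20-week nondiabetic replicate 1 had the highest ratio of 3' to 5' Gapdh control signal, a measure of RNA degradation, at 2.09 against 1.41 to 1.75 on the other arrays. The same ratio of the beta-actin control was 11.4 and 10.0 in 20-week diabetic replicates 2 and 3 and 11.2 in 20-week nondiabetic replicate 1, against 6.30 to 8.57 on the other arrays. Without 10-week diabetic replicate 1 and 20-week nondiabetic replicate 1 the counts of enzymes called stayed the same. They were 3 over both ages, 2 at 20 weeks and 0 at 10 weeks.

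Glycolysis splits glucose to pyruvate, which lactate dehydrogenase exchanges with lactate. Gluconeogenesis runs the shared steps backwards and bypasses the irreversible ones with its own enzymes. In the kidney the proximal tubule makes glucose from lactate, glutamine and glycerol and uses little glucose itself, whereas distal segments rely more on glycolysis. The pentose phosphate pathway branches off at glucose 6-phosphate and supplies NADPH and ribose.

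Over both ages, the mean of the diabetic minus nondiabetic differences at 20 and at 10 weeks, 3 of the 28 enzymes differed. Ldha, the lactate dehydrogenase subunit of glycolytic tissue, and Gpd1, the cytosolic glycerol 3-phosphate dehydrogenase, rose by 1.37-fold and 1.31-fold, and Eno1, the enolase of lower glycolysis, fell by 1.37-fold. The other 25 did not pass the test, an adjusted p under 0.05 from limma over all 18625 probe sets tested. Of all probe sets tested 4.47% were called in this comparison, 2.14% higher and 2.34% lower. At an unadjusted p under 0.05 there were 6 enzymes, where 17.9% of all probe sets were. At 20 weeks alone 2 enzymes passed, Eno1 lower and Ldha higher, where 2.84% of all probe sets were called, 1.22% higher and 1.62% lower. At an unadjusted p under 0.05 there were 6 enzymes at 20 weeks, against 16.8% of all probe sets. At 10 weeks limma called 0 enzymes, with 5 at an unadjusted p under 0.05, where 0.306% of all probe sets were called and 10.9% were at that unadjusted p. Over both ages 14 enzymes had a difference above 0 and 14 below, with a median log2 difference of 0.0024, beside -0.0103 over all probe sets tested. The median size of the difference, regardless of sign, was 0.10 for the enzymes and 0.13 for all probe sets. The median standard error was 0.078 for the enzymes and 0.13 for all probe sets, so the sizes cannot be compared directly. In whole cortex, fewer cells of a type and less RNA per cell cannot be told apart.

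**Figure D1:**
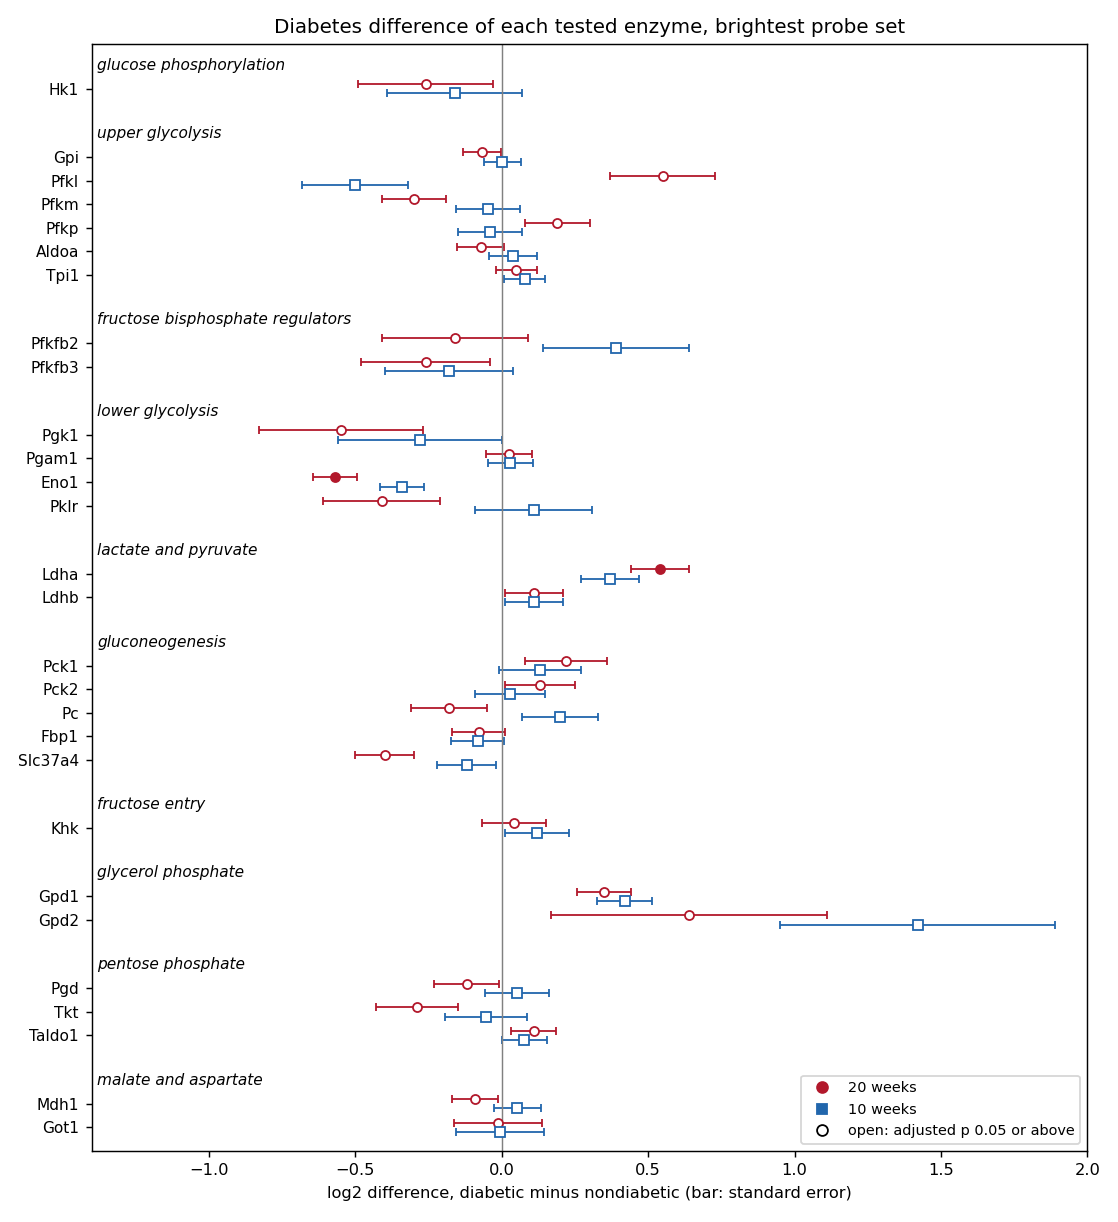
Log2 difference between diabetic and nondiabetic cortex (horizontal axis, diabetic minus nondiabetic) for the brightest probe set of each of the 28 tested enzymes, grouped by step, at 20 weeks (circles) and 10 weeks (squares). Bars are standard errors of the limma fit and filled symbols passed an adjusted p of 0.05. The filled symbols are Eno1 (-0.57) and Ldha (0.54) at 20 weeks, and Gpd2 at 10 weeks lies farthest right (1.42) with the widest bars.

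Sequences just before and after the RefSeq gene starts are shown for Eno1 and Ldha, the enzymes that passed at 20 weeks in opposite directions, and for Pck1, the gate of gluconeogenesis, whose difference did not pass. Each window runs from 250 bases before to 50 bases after the start, on the plus strand of GRCr8, at chr5:166003111-166003410 for Eno1 (the RefSeq table holds a pair of Eno1 windows, and the one with a match is shown), chr1:106507842-106508141 for Ldha and chr3:182348322-182348621 for Pck1. Capitals mark letters that match ACGTG, the core bound by hypoxia-inducible factors, CACGTG, the E-box bound by the glucose-responsive factor ChREBP and by Myc, or TGACGT, part of the cAMP response element, searched on both strands.
Eno1: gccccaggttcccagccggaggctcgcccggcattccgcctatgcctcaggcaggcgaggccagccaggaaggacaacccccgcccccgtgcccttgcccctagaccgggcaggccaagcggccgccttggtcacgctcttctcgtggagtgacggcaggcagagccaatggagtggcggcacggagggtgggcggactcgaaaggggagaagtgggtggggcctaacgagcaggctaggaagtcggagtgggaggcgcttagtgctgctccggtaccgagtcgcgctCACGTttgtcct
Ldha: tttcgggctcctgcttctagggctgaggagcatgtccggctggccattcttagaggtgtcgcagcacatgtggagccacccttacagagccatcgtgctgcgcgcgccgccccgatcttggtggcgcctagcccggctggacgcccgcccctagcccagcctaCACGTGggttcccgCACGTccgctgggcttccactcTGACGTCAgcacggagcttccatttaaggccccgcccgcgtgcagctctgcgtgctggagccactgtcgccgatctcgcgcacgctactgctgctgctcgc
Pck1: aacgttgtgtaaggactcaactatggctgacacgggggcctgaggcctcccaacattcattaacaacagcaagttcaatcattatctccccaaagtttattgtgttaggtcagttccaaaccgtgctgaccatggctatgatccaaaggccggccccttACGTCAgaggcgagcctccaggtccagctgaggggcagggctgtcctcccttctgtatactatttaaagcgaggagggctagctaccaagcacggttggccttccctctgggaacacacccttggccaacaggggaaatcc

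In the Ldha window a CACGTG begins 87 bases upstream of the start and holds ACGTG on both strands, a further ACGTG match begins 73 bases upstream, and TGACGT occurs on both strands in the overlapping letters TGACGTCA, from 51 bases upstream. The Eno1 window has a single ACGTG match, 38 bases downstream of the start, and the Pck1 window a single TGACGT match, 91 bases upstream. Of the 32 enzymes 29 have an entry in the table, with 34 windows in all. ACGTG was present in 9 of the 34 windows (26.5%), against 19.3% of all 33469 windows in the table, CACGTG in 2 (5.88%, against 6.42%) and TGACGT in 5 (14.7%, against 7.94%). ACGTG lies within CACGTG, so these 2 counts overlap. The Slc37a4 windows overlap and hold the same TGACGT match, so the 5 windows with TGACGT belong to 4 enzymes. These matches are descriptions of the letters and no test was made of them.

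Among the enzymes that add the first phosphates and cleave the sugar, none passed at either age. Hk1, the hexokinase most tissues use, had a signal of 624 ± 83.8 in 20-week diabetic and 756 ± 179 in 20-week nondiabetic cortex (SD, n = 3), and 542 ± 192 in 10-week diabetic and 589 ± 91.0 in 10-week nondiabetic cortex, with a log2 difference of -0.21 ± 0.16 (standard error, as after each log2 difference below) over both ages. Hk2, the insulin-responsive hexokinase of muscle and fat, lay below the brightness limit for testing (a geometric mean of 70.9) and gave -0.058 (exact permutation p = 0.83). Gpi, which turns glucose 6-phosphate into fructose 6-phosphate in either direction, gave -0.032 ± 0.045. The error of Hk1 was wider than that of Gpi.

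Phosphofructokinase, the committed step of glycolysis, is made of liver (Pfkl), muscle (Pfkm) and platelet (Pfkp) subunits. Pfkl signals were 371, 342 and 385 in 20-week diabetic cortex, against 251, 274 and 225 in 20-week nondiabetic cortex. They were 163, 214 and 226 in 10-week diabetic cortex, against 337, 232 and 286 in 10-week nondiabetic cortex. The diabetic arrays therefore lay above all nondiabetic arrays at 20 weeks and below all of them at 10 weeks. The log2 differences were 0.55 ± 0.18 at 20 weeks (limma adjusted p = 0.129) and -0.50 ± 0.18 at 10 weeks (adjusted p = 0.314), and neither passed. The difference at 20 weeks minus that at 10 weeks was 1.05 ± 0.25 (95% interval 0.51 to 1.60), with an unadjusted p of 0.00113 and an adjusted p of 0.40. Pfkl was the one enzyme of the 28 whose arrays separated in opposite directions at the 2 ages, which 0.601% of all probe sets did.

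Pfkm, the muscle subunit, had signals of 860, 941 and 1045 in 20-week diabetic cortex, against 1238, 1165 and 1105 in 20-week nondiabetic cortex, with no overlap. Its difference was -0.30 ± 0.11 at 20 weeks (adjusted p = 0.176) and -0.046 ± 0.11 at 10 weeks. Pfkp gave 0.19 ± 0.11 at 20 weeks and -0.040 ± 0.11 at 10 weeks. Dimmer Pfkm probe sets gave 0.13 ± 0.23 and -0.57 ± 0.60 at 20 weeks, and -0.44 ± 0.23 and 0.076 ± 0.60 at 10 weeks, so the sign for Pfkm differed between its probe sets. No subunit passed at either age. Pfkfb2 and Pfkfb3, which make and remove the phosphofructokinase activator fructose 2,6-bisphosphate, gave 0.12 ± 0.18 and -0.22 ± 0.15 over both ages. A second tested Pfkfb2 probe set gave -0.53 ± 0.28, and a dim one gave -0.96 by the exact permutation test (p = 0.025, adjusted p = 0.195 over 13 dim or control probe sets). Aldoa, the aldolase of muscle type, gave -0.017 ± 0.057, and Tpi1, which interconverts the triose phosphates, gave 0.064 ± 0.050.

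In lower glycolysis Eno1 was the one enzyme called. Eno1, the alpha-enolase that makes phosphoenolpyruvate from 2-phosphoglycerate and works in both directions, had signals of 14085, 12945 and 13568 in 20-week diabetic cortex, against 19054, 19936 and 21116 in 20-week nondiabetic cortex. They were 15898, 17597 and 15479 in 10-week diabetic cortex, against 20401, 21926 and 19596 in 10-week nondiabetic cortex. All diabetic arrays lay below all nondiabetic arrays, at both ages. Eno1 fell by 0.57 ± 0.075 on the log2 scale at 20 weeks (limma adjusted p = 0.00227), a 1.48-fold lower signal. Its difference at 10 weeks was -0.34 ± 0.075 and did not pass (adjusted p = 0.0985), and over both ages it was -0.45 ± 0.053 (95% interval -0.57 to -0.34, adjusted p = 0.000614). The interaction of diabetes and age was -0.23 ± 0.11 (adjusted p = 0.629), so the data did not show that the fall differed between the ages.

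The enzymes on either side of enolase did not pass. Pgam1, the phosphoglycerate mutase of the preceding step, gave 0.027 ± 0.055 with a 95% interval of -0.093 to 0.15, which does not reach the Eno1 difference. The 3 Gapdh control probe sets, for the dehydrogenase of glyceraldehyde 3-phosphate, gave 0.053, 0.016 and 0.034 at the 3' end, middle and 5' end (exact permutation p = 0.275, 0.80 and 0.875). A probe set shared by Gapdh and Gapdhl10 gave 0.072 ± 0.062. Pklr, the pyruvate kinase of liver, red cells and proximal tubule, gave -0.41 ± 0.20 at 20 weeks, where its arrays did not overlap, and 0.11 ± 0.20 at 10 weeks. Its signals were 439 ± 28.7 in 20-week diabetic and 592 ± 141 in 20-week nondiabetic cortex, and it did not pass (adjusted p = 0.334 at 20 weeks). A second tested Pklr probe set gave -0.025 ± 0.22 at 20 weeks, with overlapping arrays, and 0.036 ± 0.22 at 10 weeks. A probe set shared by Pkm, the other pyruvate kinase gene, and Pkm-ps20 gave 0.17 ± 0.078 over both ages (adjusted p = 0.279).

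The phosphoglycerate kinase Pgk1 had a pair of tested probe sets whose values differed. On the brighter one the signals were 21696, 10777 and 10112 in 20-week diabetic cortex, against 20344, 18205 and 20200 in 20-week nondiabetic cortex. They were 18565, 9808 and 20706 in 10-week diabetic cortex, against 19825, 19418 and 17707 in 10-week nondiabetic cortex. Of the 6 diabetic arrays 3 had about the signal of the nondiabetic arrays, and the other 3 lay far below them. The difference over both ages was -0.42 ± 0.20 (adjusted p = 0.297). The other probe set, whose name marks it as shared by several transcripts, ranged from 7961 to 9530 over all arrays and gave -0.071 ± 0.051. On it no array lay far from the rest. Its arrays overlapped at 20 weeks. At 10 weeks the diabetic arrays (8588, 8591 and 8583) lay below all nondiabetic arrays (9200, 8851 and 8909).

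Of the lactate dehydrogenase subunits, Ldha rose and Ldhb did not pass. Ldha, the lactate dehydrogenase subunit that prevails where pyruvate is turned to lactate, had signals of 4519, 5131 and 4887 in 20-week diabetic cortex, against 3094, 3480 and 3389 in 20-week nondiabetic cortex. They were 3712, 4727 and 3797 in 10-week diabetic cortex, against 3134, 3046 and 3214 in 10-week nondiabetic cortex. All diabetic arrays lay above all nondiabetic arrays, at both ages. Ldha rose by 0.54 ± 0.10 on the log2 scale at 20 weeks (limma adjusted p = 0.0114), and its difference at 10 weeks was 0.37 ± 0.10 (adjusted p = 0.162). Over both ages it rose by 0.46 ± 0.068 (95% interval 0.31 to 0.61, adjusted p = 0.00243). The 20-week call was lost without 20-week diabetic replicate 2, which had the highest beta-actin ratio (0.50, adjusted p = 0.0522), and without the intensity trend in the variance model (0.54, adjusted p = 0.0534). Ldhb, the subunit that prevails in oxidative tissue, gave 0.11 ± 0.074 over both ages (95% interval -0.052 to 0.27), and its signals averaged 22972 ± 1560 in 20-week diabetic and 21354 ± 1650 in 20-week nondiabetic cortex.

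**Figure D2:**
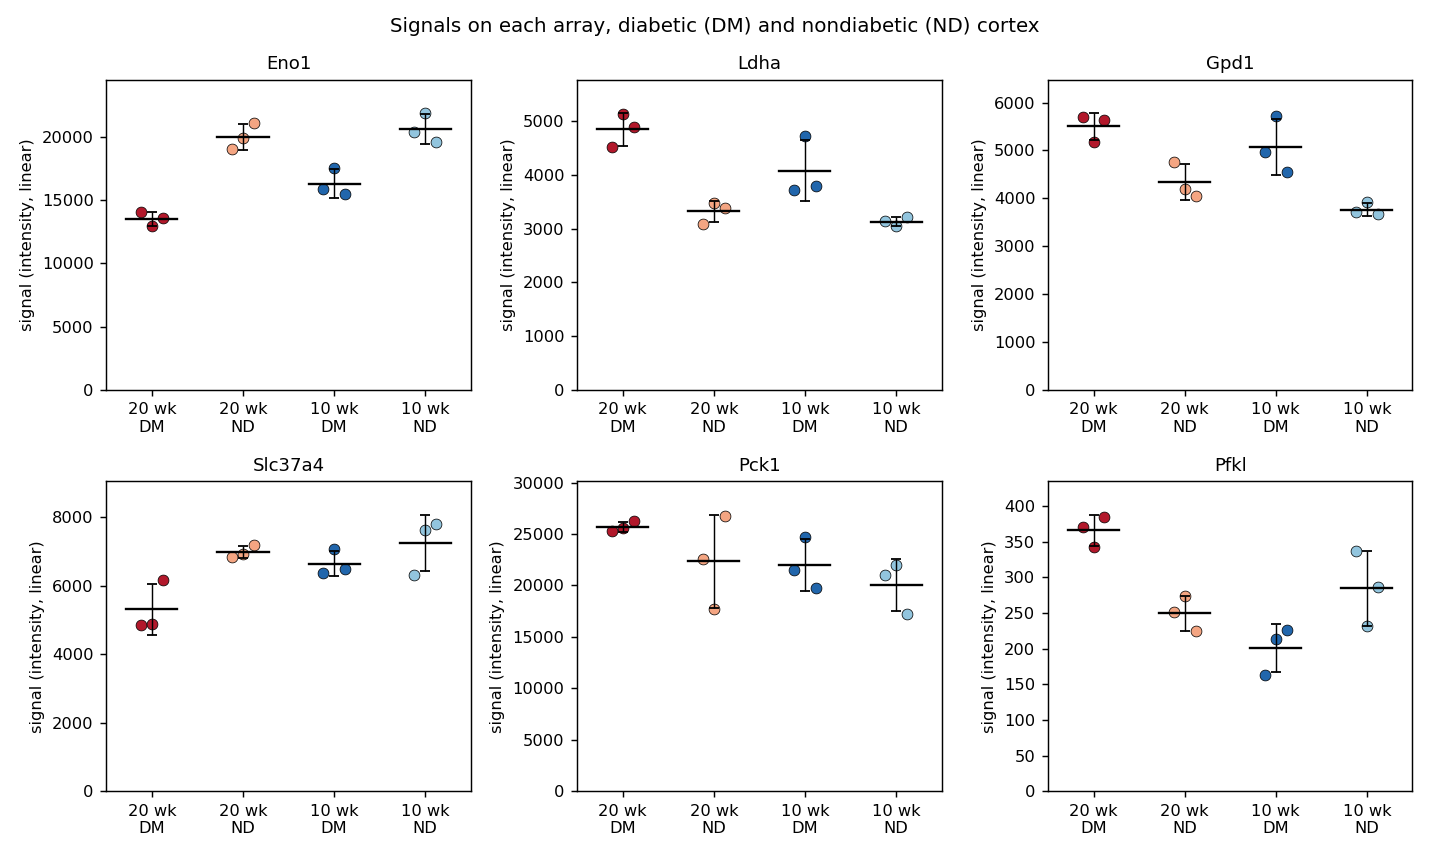
Signals (vertical axis, linear intensity) of 6 enzymes on each array, on their brightest probe sets, in 20-week diabetic (DM), 20-week nondiabetic (ND), 10-week diabetic and 10-week nondiabetic cortex. Points are arrays, lines are means and bars are SDs (n = 3). Eno1 is lower and Ldha and Gpd1 are higher on all diabetic arrays at both ages, Pfkl separates in opposite directions, and the Pck1 groups overlap.

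None of the enzymes particular to gluconeogenesis passed at either age, although Slc37a4, described last, passed under some other settings. Pck1, the cytosolic phosphoenolpyruvate carboxykinase that commits oxaloacetate to glucose, had signals of 25275, 25553 and 26222 in 20-week diabetic cortex, against 22534, 17747 and 26790 in 20-week nondiabetic cortex. They were 21516, 24682 and 19772 in 10-week diabetic cortex, against 21007, 21993 and 17186 in 10-week nondiabetic cortex. The groups overlapped at both ages, and the 20-week nondiabetic arrays spread most widely. The difference over both ages was 0.18 ± 0.10, with a 95% interval of -0.033 to 0.39 and an adjusted p of 0.377. Pck2, the mitochondrial form, gave 0.081 ± 0.082 on its brightest probe set and 0.39 ± 0.17 (adjusted p = 0.241) on a dimmer one.

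Pc, the pyruvate carboxylase that supplies oxaloacetate, gave -0.18 ± 0.13 at 20 weeks and 0.20 ± 0.13 at 10 weeks. Fbp1, the fructose 1,6-bisphosphatase that opposes phosphofructokinase, gave -0.081 ± 0.064 over both ages, with a 95% interval of -0.22 to 0.059. The 4 probe sets that name G6pc1, the glucose 6-phosphatase, together with Psme3 and Aoc3 gave differences between -0.14 and -0.022 over both ages, and none passed in any comparison. These probe sets cannot give G6pc1 a value of its own.

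Slc37a4, the transporter that brings glucose 6-phosphate to glucose 6-phosphatase in the endoplasmic reticulum, came nearest to the threshold. Its signals were 4868, 4892 and 6182 in 20-week diabetic cortex, against 6849, 6941 and 7187 in 20-week nondiabetic cortex. They were 6385, 7059 and 6482 in 10-week diabetic cortex, against 6304, 7639 and 7809 in 10-week nondiabetic cortex. The arrays did not overlap at 20 weeks and did at 10 weeks. The difference was -0.40 ± 0.10 at 20 weeks (adjusted p = 0.0624), -0.12 ± 0.10 at 10 weeks and -0.26 ± 0.074 over both ages (adjusted p = 0.0682). It passed over both ages under quantile normalization (-0.31, adjusted p = 0.0163), without 10-week nondiabetic replicate 1 (-0.31, adjusted p = 0.0351) and without 20-week diabetic replicate 3 (-0.32, adjusted p = 0.023). It passed at 20 weeks under these 3 settings too (adjusted p = 0.0266, 0.041 and 0.0316) and with the dimmest 60% of probe sets left out (adjusted p = 0.0495).

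Glycerol 3-phosphate links glycolysis to lipid synthesis and carries reducing equivalents into mitochondria. Gpd1, which makes it in the cytosol from dihydroxyacetone phosphate, had signals of 5703, 5186 and 5627 in 20-week diabetic cortex, against 4759, 4194 and 4050 in 20-week nondiabetic cortex. They were 4959, 5716 and 4550 in 10-week diabetic cortex, against 3712, 3913 and 3673 in 10-week nondiabetic cortex. All diabetic arrays lay above all nondiabetic arrays, at both ages. Gpd1 rose by 0.39 ± 0.065 over both ages (95% interval 0.24 to 0.53, limma adjusted p = 0.00504), while 0.35 ± 0.093 at 20 weeks (adjusted p = 0.0682) and 0.42 ± 0.093 at 10 weeks (adjusted p = 0.0925) did not pass. At 20 weeks it passed without 10-week diabetic replicate 2 (0.35, limma adjusted p = 0.0449). A second, dimmer Gpd1 probe set gave 0.31 ± 0.20 over both ages (adjusted p = 0.483). The call over both ages was lost when the probe sets of a gene were averaged (0.35, adjusted p = 0.0614). Eno1, Ldha and Gpd1 were the 3 of the 28 enzymes whose arrays separated in the same direction at both ages, against 4.71% of all probe sets.

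Gpd2, the mitochondrial enzyme that reoxidises glycerol 3-phosphate, had dim and scattered signals. They were 356, 129 and 216 in 20-week diabetic cortex, against 138, 189 and 101 in 20-week nondiabetic cortex. They were 433, 281 and 287 in 10-week diabetic cortex, against 106, 65.2 and 262 in 10-week nondiabetic cortex. The groups overlapped at 20 weeks and not at 10 weeks. The difference over both ages was 1.03 ± 0.33 (adjusted p = 0.11), the largest in size of the 28, and it was 1.42 ± 0.47 at 10 weeks (adjusted p = 0.274). It passed over both ages without 10-week nondiabetic replicate 3 (1.31, adjusted p = 0.0193). The other probe set gave 0.80 ± 0.27 at 10 weeks (adjusted p = 0.275) and -0.16 ± 0.27 at 20 weeks.

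**Figure D3:**
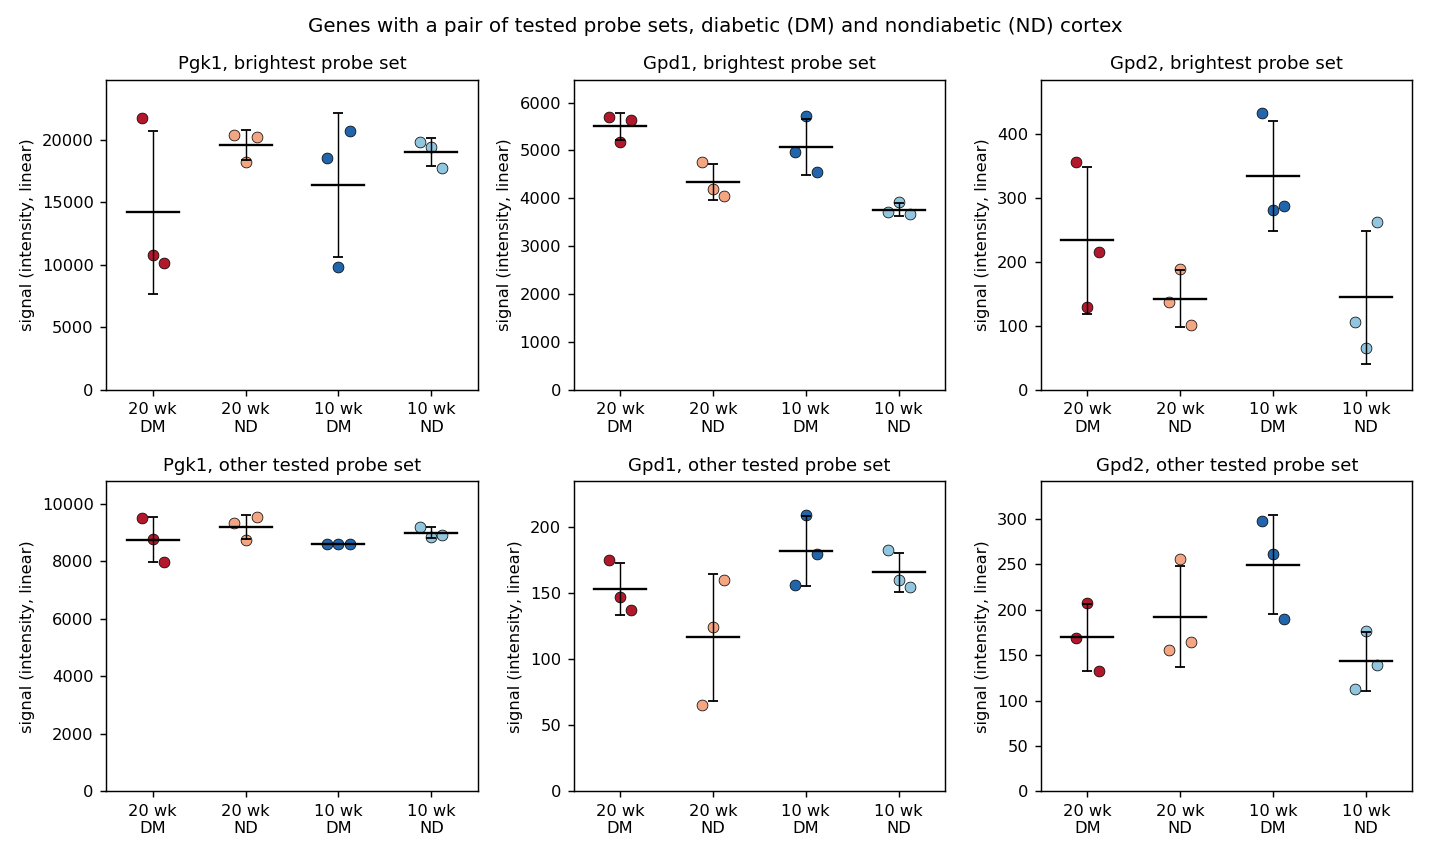
Signals (vertical axis, linear intensity) on each array for Pgk1, Gpd1 and Gpd2, which each had a pair of tested probe sets, with the brightest in the upper row and the other in the lower row. Points are arrays, lines are means and bars are SDs (n = 3) in 20-week diabetic (DM), 20-week nondiabetic (ND), 10-week diabetic and 10-week nondiabetic cortex. On the brightest Pgk1 probe set 3 diabetic arrays lie near 10000 while the other probe set stays between 7961 and 9530.

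The side branches held no called enzyme. Khk, the ketohexokinase through which fructose enters, gave 0.084 ± 0.079 over both ages. In the pentose phosphate pathway, Pgd of the oxidative branch gave -0.035 ± 0.079. Tkt and Taldo1, which rearrange sugar carbons in the non-oxidative branch, gave -0.29 ± 0.14 and 0.11 ± 0.077 at 20 weeks, and the Taldo1 arrays did not overlap at that age. Mdh1 and Got1, the cytosolic malate dehydrogenase and aspartate transaminase of the malate-aspartate shuttle, gave -0.019 ± 0.057 and -0.0091 ± 0.11 over both ages.

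Separation of the arrays, counted without regard to the test, was found at 20 weeks for 9 of the 28 enzymes, against 20.9% of all probe sets, and at 10 weeks for 5, against 17.0%. The 9 at 20 weeks were Eno1, Pfkm, Pklr and Slc37a4 below the nondiabetic arrays and Ldha, Gpd1, Pfkl, Pck2 and Taldo1 above them. The 5 at 10 weeks were Eno1 and Pfkl below and Ldha, Gpd1 and Gpd2 above.

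Whether diabetes acted differently at the 2 ages was asked with the interaction. limma called 0 of the 28 enzymes and 0.0% of all probe sets, with 1 enzyme, Pfkl, at an unadjusted p under 0.05, where 7.95% of all probe sets were. The dimmer tested Gpd2 probe set gave -0.97 ± 0.38 (limma unadjusted p = 0.0243, adjusted p = 0.559). The median interaction over the enzymes was -0.084, with 21 of 28 below 0, beside 0.0041 over all probe sets. The share of all probe sets below 0 was not counted. These medians depended on the scaling, and under median scaling they were -0.23 and -0.139. Age itself, 20-week minus 10-week nondiabetic cortex, gave 0 called enzymes with 0 at an unadjusted p under 0.05, where 0.0% and 8.61% of all probe sets were. On the brightest probe sets the largest age difference in size was 0.40 ± 0.25, in Pfkfb2, and the smallest unadjusted p was 0.0507, in Gpd1 (0.20 ± 0.093). Dimmer tested probe sets gave larger ones that did not pass. Among these were 1.13 ± 0.60 and -0.64 ± 0.23 (limma unadjusted p = 0.0181) for Pfkm and -0.60 ± 0.29 for Gpd1. On simulated data of these sizes a log2 change of 1 was recovered for 48% of probe sets in the interaction and 46% for age. A change of 0.5 was recovered for 18% in both. These rates are for probe sets drawn from all those tested, with median standard errors of 0.26 in the interaction and 0.18 for age. The enzymes had 0.16 and 0.11, so the rates are not those of the enzymes. The simulation also held planted changes of up to 2, whose calls ease the adjustment of p for other probe sets. In the data 0.0% of probe sets were called in both comparisons, so real recovery may be lower.

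Further genes of the same pathways were taken from a list of 42, of which 29 were tested on their brightest probe sets. Over both ages 1 passed, Mpc1, a subunit of the mitochondrial pyruvate carrier. Its signal averaged 10000 ± 779 in 20-week diabetic and 12600 ± 1510 in 20-week nondiabetic cortex, and 11600 ± 658 in 10-week diabetic and 13300 ± 515 in 10-week nondiabetic cortex, and it fell by 0.26 ± 0.065 on the log2 scale (adjusted p = 0.0435). At 20 weeks 1 passed, Pgm2, a phosphoglucomutase that also acts on phosphopentoses. It averaged 709 ± 65.6 in 20-week diabetic and 481 ± 35.0 in 20-week nondiabetic cortex, with a difference of 0.56 ± 0.11 (adjusted p = 0.0198). At 10 weeks, where the difference of Pgm2 was -0.025 ± 0.11, limma called 0 of the 29. At an unadjusted p under 0.05 there were 11 of the 29 over both ages, 9 at 20 weeks and 6 at 10 weeks, where 17.9%, 16.8% and 10.9% of all probe sets were. The median over the 29 was 0.10 over both ages, beside -0.0103 over all probe sets, with 21 of the 29 above 0 and 8 below. The share of all probe sets above 0 was not counted. Of 20 regulators of these pathways 16 were tested and limma called 0 of them over both ages, at 20 weeks and at 10 weeks, with 3, 4 and 2 at an unadjusted p under 0.05, beside the shares of all probe sets just given.

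Cell type markers were measured on the same arrays. Of the markers of the S1 and S2 segments of the proximal tubule, where gluconeogenic enzymes are concentrated, 1 of 10 fell over both ages (Slc13a3, -0.29), and their summed signal was 122470 to 132159 in 20-week diabetic and 121365 to 140048 in 20-week nondiabetic cortex. It was 119986 to 140452 in 10-week diabetic and 122011 to 134468 in 10-week nondiabetic cortex. Of the S3 markers 2 of 5 rose (Slc27a2, 0.51, and Acy3, 0.57), with sums of 44677 to 52849 in 20-week diabetic and 32792 to 42833 in 20-week nondiabetic cortex, and 41182 to 48689 in 10-week diabetic and 19392 to 43342 in 10-week nondiabetic cortex. The S3 sums were higher in diabetic cortex without overlap at 20 weeks, and they overlapped at 10 weeks.

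Markers of the inner medulla, where glycolysis supplies most energy, rose in 2 of 4 (Aqp4, 1.14, and Slc5a3, 0.78), and the other 2 had differences below 0, to -0.45, that did not pass. Their sums were 3199 to 3828 in 20-week diabetic and 1766 to 2456 in 20-week nondiabetic cortex, and 1941 to 2742 in 10-week diabetic and 1658 to 2084 in 10-week nondiabetic cortex. Within these sums Slc5a3 alone averaged 2070 ± 295 in 20-week diabetic and 946 ± 239 in 20-week nondiabetic cortex. In the collecting duct 1 of 7 markers rose (Aqp2, 0.55) and 1 fell (Slc26a4, -0.51), and in the thick ascending limb 1 of 6 fell (Cldn10, -0.50). Podocyte markers fell in 2 of 5 (Nphs1, -0.48, and Ptpro, -0.40), endothelial markers in 1 of 6 (Vwf, -1.78), and leukocyte markers rose in 1 of 4 (Csf1r, 0.36). The podocyte sums were 4512 to 5030 in 20-week diabetic and 5526 to 6000 in 20-week nondiabetic cortex. They were 4681 to 6121 in 10-week diabetic and 5970 to 6705 in 10-week nondiabetic cortex. limma called 0 of the 3 distal convoluted tubule, 4 smooth muscle, 2 fat and 2 red blood cell markers tested over both ages, with 2, 1, 0 and 0 at an unadjusted p under 0.05. Defining markers left untested included Slc5a8 of S3, Cdh5 of endothelium, Cd3e and Itgam of leukocytes and Plin1, Lep and Cfd of fat. Further marker sums did not overlap at 20 weeks. Endothelial sums were lower, 7738 to 8442 in diabetic and 8967 to 10341 in nondiabetic cortex. Higher in diabetic cortex were collecting duct (15806 to 17619 against 14426 to 14788) and distal tubule sums (14231 to 16591 against 12690 to 13477). Fat sums were higher too (692 to 1249 against 454 to 629). All of these overlapped at 10 weeks. The part of these shifts in the differences of Eno1, Ldha and Gpd1 was not tested. The Gapdh 3'/5' ratio differed by 0.019 on the log2 scale between diabetic and nondiabetic arrays (exact permutation p = 0.83), and the beta-actin ratio by 0.076 (exact permutation p = 0.62). With the Gapdh ratio as a covariate Eno1 gave -0.45, Ldha 0.46 and Gpd1 0.38 over both ages, and all 3 passed.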

How the data were processed

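Total RNA of rat renal cortex was hybridised to 12 one-colour arrays, 3 in each of 4 groups. The authors deposited linear probe-set intensity values made with GCOS, per the submitters' processing notes. Its version and how probes were summarised were not given in the sources used here. The trimmed mean of each array (2% at each end) was 500.2, so arrays were already scaled to a common level, and a difference is relative to the other transcripts. Of 31099 probe sets, 57 controls were left out of the fit. Signals below 1 (424 values) were set to 1 and log2 of the deposited intensity was taken. The dimmest 40% of probe sets were left out, and 18625 were tested.

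Probe sets were named from the array annotation, updated through RefSeq (20832 named 1 gene, 436 several, 9831 none here). limma 3.58.1 in R 4.3.3 fitted 4 group means (8 residual degrees of freedom, eBayes with an intensity trend), with two-sided tests and Benjamini-Hochberg adjustment over all probe sets in each of 5 comparisons. A gene counts by its brightest tested probe set. Member probe sets outside the fit had an exact permutation test over the 400 rearrangements within ages, whose smallest p is 0.005. Every member is named, called ones with all signals, and listed pathway genes and markers where called. The members and lists were chosen with earlier results of these data known. The test was checked on simulated data. Promoter windows are RefSeq's, on GRCr8. No label says which rat an array came from, so the p-values speak of the spread between samples, which may be technical. The number of arrays limits the precision. Alternatives were other scalings, filters, offsets, variance models, array weights, a replicate block and arrays left out.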

Additional observations from a re-analysis of the deposited data

Results flagged for a closer look

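Pfkl, the liver subunit of phosphofructokinase, had every diabetic array above every nondiabetic array at 20 weeks and every diabetic array below every nondiabetic array at 10 weeks. The difference of the diabetes differences, 20 minus 10 weeks, was 1.05 ± 0.25 on the log2 scale and did not pass (limma adjusted p = 0.40, unadjusted p = 0.00113). Under the alternatives it lay between 0.91 and 1.19, with adjusted p from 0.235 to 0.703. Its cause was not tested.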

How the results depend on the processing

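Eno1 kept its direction and its call over both ages (-0.52 to -0.41) and at 20 weeks (-0.66 to -0.53) under all alternatives run, and Ldha over both ages (0.40 to 0.50). The number of enzymes called was 2 to 4 over both ages and 0 in the interaction and for age under all of them. At 20 weeks it was 1 without the intensity trend, and at 10 weeks 1 under quantile normalization (Eno1, -0.37, adjusted p = 0.0317). With 1 array left out in turn, the numbers called ranged from 3 to 4 over both ages and from 1 to 3 at 20 weeks, where 1 was found without 20-week diabetic replicate 2 and 3 without 10-week nondiabetic replicate 1, 10-week diabetic replicate 2 or 20-week diabetic replicate 3, and stayed 0 at 10 weeks, in the interaction and for age. The deviations of same-numbered diabetic and nondiabetic arrays correlated at r from -0.0425 to 0.149, not over 0.1 in every pair, and with the replicate block 3 enzymes were called over both ages, 2 at 20 weeks and 0 at 10 weeks. Median scaling moved the median over the enzymes to 0.14 at 10 weeks and -0.23 in the interaction, and that over all probe sets to 0.0892 and -0.139. Without 20-week nondiabetic replicate 3 the median over the enzymes at 20 weeks was -0.00056, against -0.070 with all arrays. All probe sets called ranged from 490 to 876 over both ages, 191 to 567 at 20 weeks, 5 to 115 at 10 weeks, 0 to 3 in the interaction and 0 to 9 for age. The cause of these shifts was not tested. Dim probe sets, such as those of Gpd2 and Hk2, give uncertain sizes.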

Other observations

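Malic enzyme Me1, which makes NADPH from malate, and Glyctk, which phosphorylates glycerate, are on the list of further pathway genes and were not called on their brightest probe sets. A second Me1 probe set averaged 787 ± 304 in 20-week diabetic and 1750 ± 315 in 20-week nondiabetic cortex (SD, n = 3), a log2 difference of -1.21 ± 0.27 (standard error) that passed (limma adjusted p = 0.0359). The brightest Me1 probe set gave -1.06 ± 0.35 (adjusted p = 0.144) at 20 weeks and 0.10 ± 0.35 at 10 weeks. A second Glyctk probe set rose by 0.44 ± 0.085 over both ages (adjusted p = 0.0121), while the brightest gave 0.11 ± 0.070 and a further one -0.057 ± 0.11. A dim Hk1 probe set gave 1.58 over both ages (exact permutation p = 0.03, adjusted p = 0.195), opposite in sign to the -0.21 of the brightest one. These probe sets were chosen after their values were seen.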
